A study of Rattus norvegicus with 28 samples.

Results

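The epidermal growth factor (EGF) family was followed in the terminal ileum of newborn rats through 8 genes, 5 ligands (Areg, Egf, Tgfa, Hbegf and Btc) and 3 receptors (Egfr, Erbb2 and Erbb3). Members were all probe sets, the array's sets of short oligonucleotides that report 1 or more transcripts, whose platform symbol was 1 of these names. This gave 10 of the 8740 probe sets that are not controls, for 7 of the 8 genes. No probe set carried the symbol Btc, and that gene was not analysed here. Of these, 5 probe sets for 4 genes (Areg, Egfr, Erbb2 and Erbb3) passed the filter on low signals, and 5 probe sets for the other 3 genes (Egf, Tgfa and Hbegf) did not.

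The pups came from a rat model of necrotizing enterocolitis, in which the bowel of the newborn becomes inflamed and can die. One array was hybridised with total RNA of the whole terminal ileum of 1 pup, for 28 pups in 9 groups. On each of days 1, 2, 3 and 4 of life, 3 breast-fed pups and 3 pups given formula together with hypoxic stress (3 times a day) were taken, and 4 newborns had not been fed. Formula and hypoxia were always combined, so that their effects cannot be told apart, and the labels used here give neither strain nor sex. The unfed pups are treated as day 0.

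EGF family ligands are made as membrane proteins and are cut loose by cell-surface proteases. They bind EGFR or a related receptor, and the receptors pair up and switch on the RAS to MAP kinase and PI3 kinase relays, which induce early genes such as FOS together with inhibitors of the same pathway. In the intestine this signalling is known for epithelial growth and repair, and EGF reaches the newborn gut lumen with milk.

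Areg, the ligand amphiregulin, was the member whose signal rose with the regimen at the main threshold, and its promoter is shown for that reason. In the RefSeq table for the rat build GRCr8, the 250 bases before its start lie at chr14:17265642-17265891 on the minus strand. Capitals mark a cyclic AMP response element (TGACGTCA), which starts 91 bases before the gene's start, and a TATA box (TATAAA), which starts 61 bases before it.
Areg promoter: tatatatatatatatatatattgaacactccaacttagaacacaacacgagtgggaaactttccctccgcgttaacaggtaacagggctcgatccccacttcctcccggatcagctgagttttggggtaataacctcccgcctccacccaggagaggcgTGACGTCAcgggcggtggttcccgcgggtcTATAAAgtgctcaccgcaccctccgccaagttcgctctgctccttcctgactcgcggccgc
The motifs were chosen after this sequence had been seen and were searched on both strands. The cyclic AMP response element was found in 1.59% of 33469 rat promoters of this length and the TATA box in 12.9%. A GC box (GGGCGG), found in 30.5%, starts 82 bases before the Areg start and overlaps neither of them. The AP-1 site (TGANTCA), found in 6.34%, had no match there. Promoters were matched for 7 of the 8 members. The other 6, those of Egf, Egfr, Tgfa, Hbegf, Btc and Erbb2, held no match to the response element, the TATA box or the AP-1 site. A match describes the letters and was not tested as a binding site.

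Of the arrays, 2 stood apart. Breast-fed day 3 replicate 3 lacked 69 of 754 abundant probe sets (those above 500 in the other arrays' median, counted as lacking when over 16-fold below it) and breast-fed day 4 replicate 2 lacked 48 of 757, against 0 to 2 in the others. RNA quality can be read from the actin control probe sets, whose 3′ to 5′ signal ratio was 4.17 in formula and hypoxia day 1 replicate 2 and at most 2.42 in the other arrays. The array records were also split into 2 runs, of 19 and 9 arrays. Unfed replicate 2 was placed in the second run, though its record is not consecutive with the others there. The second run holds every breast-fed array of day 4, most unfed arrays and, of the formula arrays, only day 4 replicate 3. Comparisons of the regimens on day 4 and with unfed pups thus lie partly between the runs. Results that called a member are given with and within these runs. Signals below are quantile-normalised intensities. Folds are means on the log2(signal + 8) scale, which understates changes of low signals. The filter lay at a signal of 24.0, the 40th percentile of all probe sets. As a guide to background, 15 control probe sets for bacterial genes (DapX, LysX, PheX, ThrX and TrpnX), which rat tissue lacks, had a median of 4.64 over 420 values, and 9 values (2.14%) lay above 24.0.

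Areg signals of formula and hypoxia pups lay above those of breast-fed pups on each day of life, and the mean over days passed the test. In breast-fed pups its signals in replicates 1 to 3 were 24.6, 34.7 and 24.6 (day 1) and 28.2, 21.5 and 28.6 (day 2). They were 54.9, 71.7 and 48.7 (day 3) and 33.8, 99.6 and 69.7 (day 4). The breast-fed pups of days 1 and 2 thus sat close to the filter, and those of days 3 and 4 above it. The formula and hypoxia pups had signals of 79.6, 73.9 and 48.7 (day 1) and 103, 86.7 and 83.0 (day 2). They were 150, 186 and 688 (day 3) and 277, 222 and 156 (day 4). On each of the 4 days the lowest formula pup lay above the highest breast-fed pup. This held on all 4 days for 23 of the 5244 probe sets tested (0.439%). The unfed newborns, at 62.3, 20.01, 40.5 and 113, overlapped both regimens.

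**Figure D1:**
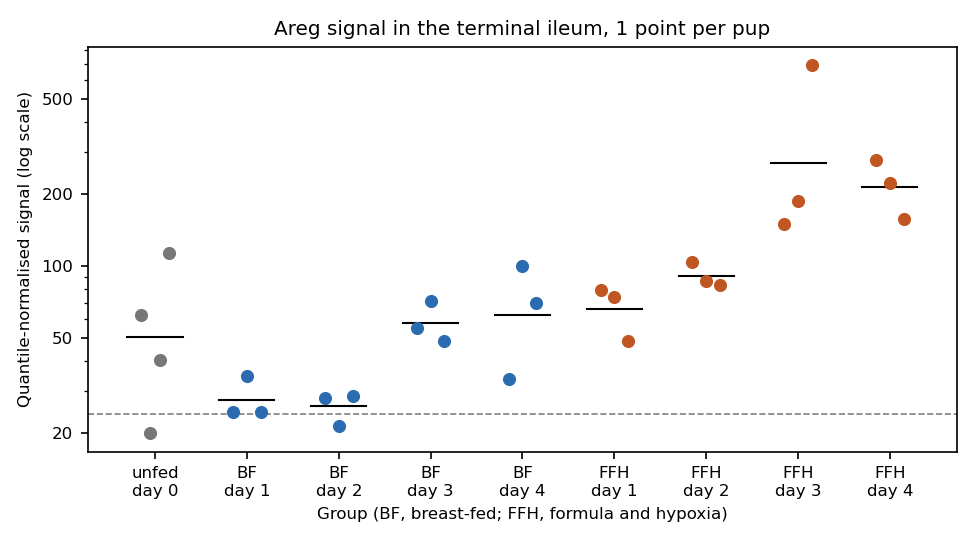
Areg signal (quantile-normalised, log axis) in each of the 28 pups by regimen and day. Points are pups, bars are group means on the log2(signal + 8) scale, and the dashed line is the filter at 24.0. Formula and hypoxia pups lay above all breast-fed pups of their day, with the highest value, 688, on day 3.

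Averaged over days 1 to 4, Areg was 2.99-fold higher than under breast feeding (95% confidence interval 2.15 to 4.15, n = 12 against 12 arrays, limma with Benjamini-Hochberg adjustment, adjusted p = 6.32e-05). The mean signal was 180 ± 174 (SD, n = 12) against 45.1 ± 24.5 (SD, n = 12), and all 12 formula pups exceeded the breast-fed mean of their day. Areg was the 1 member probe set called of 5 tested, where 10.5% of all 5244 probe sets were called (3.91% as higher and 6.56% as lower). The median log2 change of the 5 was 0.27, against 0.02 over all probe sets. Areg kept its call when any single array was left out, with log2 changes of 1.41 to 1.69 and adjusted p of 2.02e-05 to 0.000192. With the record run as a term the log2 change was 1.501 (adjusted p = 0.000785), and within the first run, whose mean covers days 1 to 3, it was 1.54 (adjusted p = 0.00113). The second run cannot give this mean. It allows a day 4 difference of 1 formula array against 3 breast-fed arrays, which was 1.27.

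Taken by day, Areg passed the adjusted threshold on day 3 and missed it on the other days. The fold was 2.08 (1.08 to 4.00, limma adjusted p = 0.517) on day 1, 2.91 (1.51 to 5.60, adjusted p = 0.123) on day 2, 4.22 (2.19 to 8.13, adjusted p = 0.0209) on day 3 and 3.14 (1.63 to 6.04, adjusted p = 0.0645) on day 4, each with 3 against 3 pups. The share of all probe sets called was 0.172%, 1.11%, 1.83% and 1.75% on these days. Of the 5 member probe sets, 0 were called on days 1, 2 and 4 by limma, and 1, 1 and 2 had an unadjusted p under 0.05, as did 8.64%, 9.52% and 14.5% of all probe sets. The day 3 call rested on single pups: it was lost without the formula pup at 688 (log2 change 1.41, adjusted p = 0.0885), without breast-fed replicate 3 (1.97, adjusted p = 0.0974) and without both arrays that stood apart (1.96, adjusted p = 0.0854). It stood with a term for the record run (1.999, adjusted p = 0.0458) and in the first run (1.94, adjusted p = 0.0489). No difference among the 4 daily effects was called for Areg (F test in limma, adjusted p = 0.951, where 0.0191% of probe sets were called). The daily comparisons are parts of the 4-day mean and are not independent of it.

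Within formula and hypoxia, Areg also rose with the day of life. The labels give only the day, so that age and time under the regimen cannot be told apart. Day 4 was 2.98-fold above day 1 (1.55 to 5.75, limma adjusted p = 0.0296, 10.6% of probe sets called). The 3 pups of day 4 lay above the 3 of day 1. How many of all probe sets separate in this way was not counted. The call was lost, with log2 changes near the 1.58 of all arrays, without any 1 of the 3 day 1 pups (1.70, 1.65 and 1.39, adjusted p = 0.0545, 0.0537 and 0.103). It was also lost without day 4 replicate 1 or 2 (1.399 and 1.55, adjusted p = 0.140 and 0.0754) and with arrays scaled to a common median (1.46, adjusted p = 0.0602). It stood with the record run as a term (0.0358) and in the first run (0.0171). In the same comparison 4 of 6 smooth muscle markers were called as higher (summed signal 5046 to 7317 on day 1, 10493 to 14034 on day 4), as were 2 of 11 epithelial markers (17423 to 20603 and 28779 to 31904). Their part in the rise of Areg was not tested. Within breast feeding, day 4 was 1.97-fold above day 1 (1.02 to 3.80, adjusted p = 0.290, 0.362% of probe sets called), and the ranges overlapped. The change of the regimen effect from day 1 to day 4 was 1.51-fold (0.598 to 3.82, adjusted p = 0.913, 0.114% called).

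Against unfed newborns, no difference of Areg on day 1 was called, and the unfed range covered both day 1 groups. Breast-fed pups gave a log2 change of -0.71 (limma adjusted p = 0.950), and formula and hypoxia gave 1.27-fold (0.688 to 2.35, adjusted p = 0.880). Of the 5 member probe sets, 0 were called in either comparison and 0 had an unadjusted p under 0.05. Among all probe sets 0% were called for breast feeding, with 5.42% at an unadjusted p under 0.05, and 0.172% for formula and hypoxia, with 9.46%.

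Over the 9 groups, Areg was called as differing (F test in limma, adjusted p = 0.000314, 19.6% of probe sets called). The order of the group means, from the highest, was formula and hypoxia on days 3, 4, 2 and 1, breast-fed on days 4 and 3, unfed, and breast-fed on days 1 and 2. Of the steps between neighbours, 1 had a 95% interval that excluded 0, that from formula and hypoxia day 4 down to day 2 (log2 difference 1.16, 0.22 to 2.11). The other neighbours did not differ beyond their intervals. Of 3184 other genes, those whose pattern over the 9 group means was most like that of Areg were Cipc (Pearson r = 0.980), Glul, the glutamine synthetase gene (0.970), and Apoe (0.962). These correlations over 9 points describe group means that share their arrays.

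Hbegf, the heparin-binding EGF-like ligand, lay below the filter but was high in some formula pups of days 3 and 4 at 1 of its probe sets. At L05489_at the breast-fed signals were 8.19, 8.31 and 10.9 (day 1), 8.33, 8.72 and 5.44 (day 2), 33.8, 6.63 and 8.02 (day 3) and 7.56, 13.3 and 15.4 (day 4). The formula pups had 5.49, 7.58 and 12.4 (day 1), 17.3, 24.9 and 8.19 (day 2), 49.3, 42.1 and 102 (day 3) and 46.5, 29.4 and 16.8 (day 4). The unfed pups had 7.25, 10.96, 7.83 and 10.8. Signals thus exceeded 24.0 in 6 of 12 formula pups, 1 of 12 breast-fed pups and 0 of 4 unfed pups. On days 3 and 4, though not on days 1 and 2, every formula pup lay above every breast-fed pup, as did 7.08% and 7.39% of the 8740 probe sets on those days.

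In the fit without the filter, which covers all 8740 probe sets, Hbegf at L05489_at rose 1.72-fold in the 4-day mean (1.33 to 2.22, n = 12 against 12, limma adjusted p = 0.00903), with 10 of 12 formula pups above the breast-fed mean of their day. In this fit 2 of the 10 member probe sets were called, Hbegf and Areg, against 5.81% of all. On day 3 the change was 3.18-fold (1.91 to 5.30, adjusted p = 0.0248, 0.835% called) and on day 4 it was 1.87-fold (1.12 to 3.12, adjusted p = 0.304, 0.847% called). Most breast-fed signals lay near the pseudocount of 8, and the log2 change of the 4-day mean ran from 1.00 with a pseudocount of 2 to 0.44 with 32. The 4-day call was lost with the record run as a term (log2 change 0.67, adjusted p = 0.0663) and within the first run, over days 1 to 3 (0.65, adjusted p = 0.183). The day 3 call was lost with the run as a term (adjusted p = 0.0572), within the first run (0.239), without both arrays that stood apart (0.166), without breast-fed replicate 2 (0.102) or 3 (0.147), and without formula replicate 1 (0.0541) or 3 (0.0916). The second Hbegf probe set, rc_AI059540_at, gave a log2 change of 0.03 (limma adjusted p = 0.946). Of its 28 arrays, 2 lay above 24.0, and the highest signal was 27.7. It thus did not show the rise. Its signals lay within the range of the bacterial controls (highest 33.7), so that it cannot decide about the change at L05489_at.

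Tgfa, the ligand transforming growth factor alpha, also lay below the filter, and 13 of 28 arrays exceeded 24.0: 8 of formula, 3 of breast-fed and 2 of unfed pups. Breast-fed signals were 33.6, 9.53 and 8.58 (day 1), 10.5, 7.40 and 11.1 (day 2), 27.2, 8.42 and 8.16 (day 3) and 20.8, 2.85 and 40.05 (day 4). The formula pups had 17.4, 7.05 and 40.2 (day 1), 16.9, 34.4 and 3.97 (day 2), 48.2, 38.8 and 27.95 (day 3) and 60.2, 66.5 and 58.3 (day 4). The regimens overlapped on days 1 and 2 and were apart on days 3 and 4, by a narrow margin on day 3. Of the 8740 probe sets, 7.08% and 7.39% had every formula pup above every breast-fed pup on days 3 and 4. The unfed pups, at 14.8, 46.2, 27.4 and 5.01, covered most of the range.

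In the fit without the filter, Tgfa gave 1.75-fold in the 4-day mean (1.18 to 2.59, limma adjusted p = 0.0903) and 2.82-fold on day 4 (1.28 to 6.22, adjusted p = 0.258), neither past the threshold. Day 4 against day 1 within formula and hypoxia gave 2.63-fold (1.19 to 5.80, adjusted p = 0.148), and the same comparison for Hbegf 2.27-fold (1.36 to 3.79, adjusted p = 0.0514), where 5.51% of probe sets were called. For Hbegf it passed the threshold in 11 of 38 alternative settings. The 4-day mean of Tgfa passed the threshold with array weights (adjusted p = 0.0491) and without breast-fed day 4 replicate 3 (0.0484). Neither Tgfa nor Hbegf showed a called change of the daily effect, and 0 member probe sets were called by that F test, with 1 of 10, Hbegf at L05489_at, at an unadjusted p under 0.05 in the fit without the filter (6.51% of all).

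Egf, the founding ligand of the family, gave signals within the range of these bacterial controls, whose highest value was 33.7, at both probe sets. At U04842_at the 28 signals ran from 4.53 to 26.9, with 1 above 24.0, and at X12748cds_s_at they ran from 2.10 to 16.8, with 0 above it. In the fit without the filter the log2 changes of the 4-day mean were 0.05 (limma adjusted p = 0.874) and -0.20 (adjusted p = 0.361). Signals this low bound the transcript level at these probe sets and say nothing of EGF protein that a pup takes in.

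**Figure D2:**
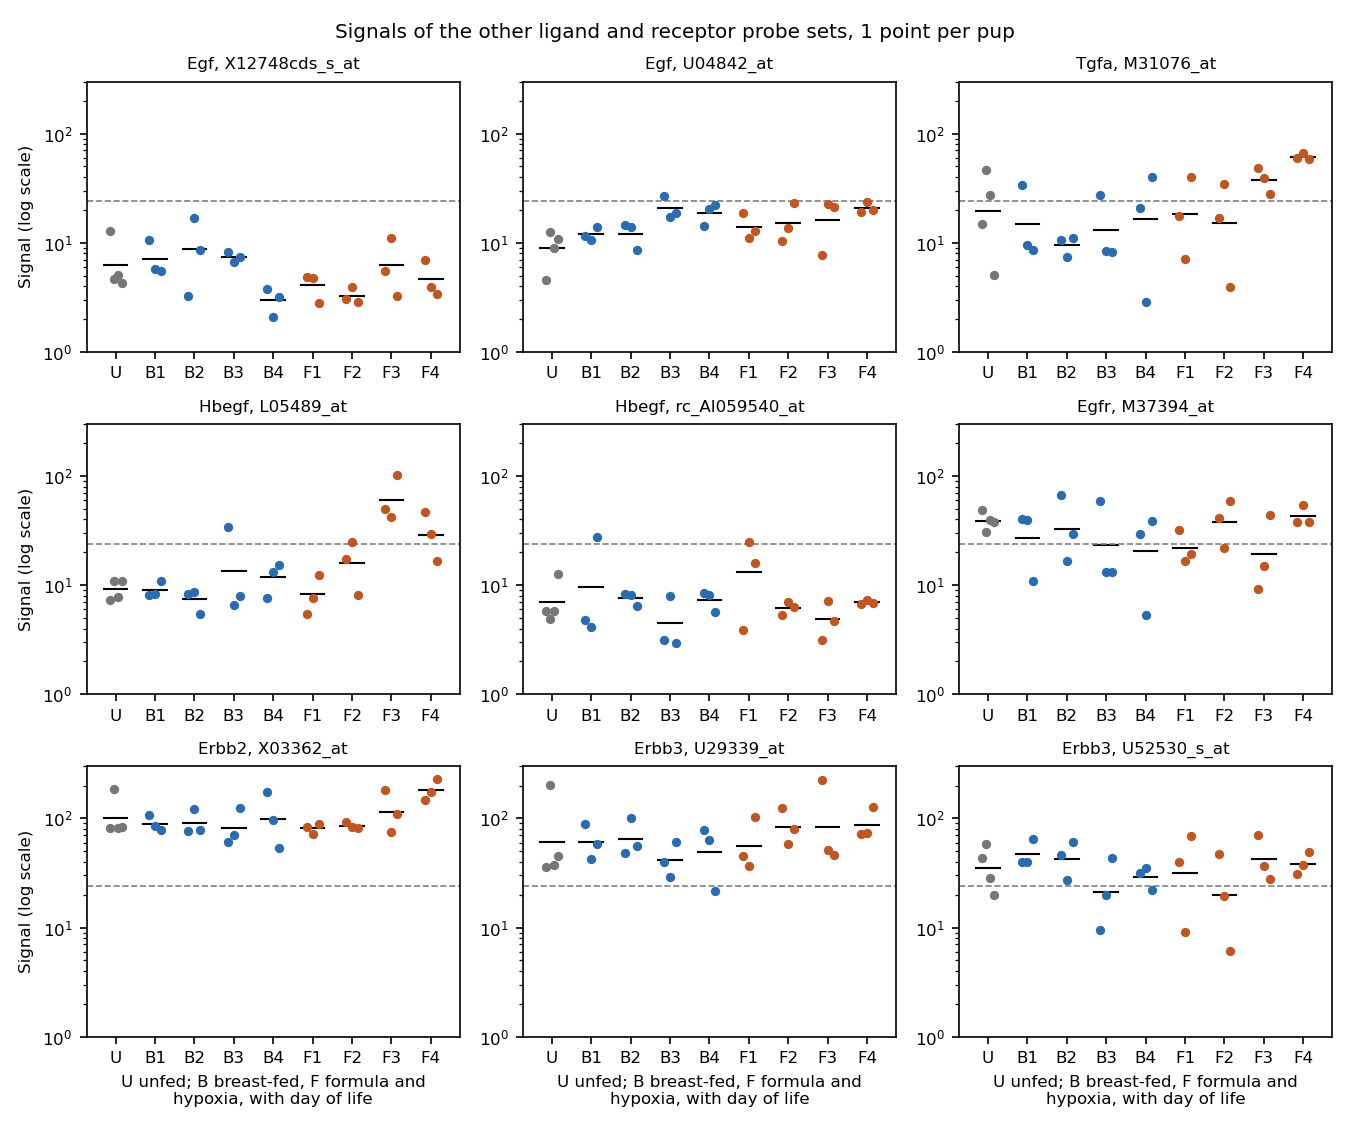
Signals (quantile-normalised, log axis) of the 9 probe sets of Egf, Tgfa, Hbegf, Egfr, Erbb2 and Erbb3 in unfed (U), breast-fed (B) and formula and hypoxia (F) pups by day. Points are pups, bars are group means on the log2(signal + 8) scale and the dashed line is the filter at 24.0. Both Egf probe sets stay near or below the line. Hbegf at L05489_at (7 arrays) and Tgfa (13 arrays) cross it in formula pups of days 3 and 4 and in some pups of other groups.

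The receptors were measured above the filter, and none of their 4 probe sets was called between the regimens. Egfr, the receptor that binds Areg, Egf, Tgfa and Hbegf, ran from 5.33 to 66.3 with a median of 34.9. Breast-fed signals were 39.9, 39.6 and 10.9 (day 1), 66.3, 16.6 and 29.6 (day 2), 58.8, 13.2 and 13.3 (day 3) and 29.2, 5.33 and 38.9 (day 4). Those under formula and hypoxia were 32.2, 16.7 and 19.3 (day 1), 41.2, 21.8 and 59.4 (day 2), 9.23, 15.01 and 44.1 (day 3) and 38.1, 54.2 and 37.5 (day 4). The regimens overlapped on every day, and 18 of 28 arrays exceeded 24.0. The 4-day mean gave 1.11-fold (0.765 to 1.61, limma adjusted p = 0.771), an interval that includes 1. The unfed pups had 49.0, 30.4, 39.3 and 37.8.

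Erbb2, the receptor that has no known ligand of its own and pairs with the others, was above 24.0 in all 28 arrays. Breast-fed signals were 107, 86.0 and 77.7 (day 1), 77.3, 121 and 78.2 (day 2), 60.6, 71.0 and 125 (day 3) and 174, 96.8 and 54.1 (day 4). Those under formula and hypoxia were 83.6, 72.0 and 88.7 (day 1), 92.9, 82.9 and 81.8 (day 2), 182, 74.6 and 111 (day 3) and 146, 173 and 232 (day 4). The formula pups of day 4 lay above those of days 1 and 2, and overlapped the breast-fed pups of day 4. How many of all probe sets separate by day in this way was not counted. The 4-day mean gave 1.21-fold (0.934 to 1.56, limma adjusted p = 0.362) and day 4 gave 1.78-fold (1.06 to 2.98, adjusted p = 0.270). Day 4 against day 1 within formula and hypoxia gave 2.11-fold (1.26 to 3.54, adjusted p = 0.0559, 10.6% of probe sets called), which missed the threshold and passed it in 11 of 40 alternative settings. Unfed pups had 81.8, 187, 81.8 and 83.3.

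Erbb3, a receptor for neuregulins with weak kinase activity of its own, had 2 probe sets. At U29339_at signals ran from 21.8 to 227 and the 4-day mean gave 1.38-fold (0.919 to 2.07, limma adjusted p = 0.321). At U52530_s_at they ran from 6.14 to 71.2 and the 4-day mean gave 0.960-fold (0.671 to 1.37, adjusted p = 0.913). The 2 probe sets thus differed in the sign of a change that neither called, and both intervals include 1. At U29339_at the highest pups were formula and hypoxia day 3 replicate 1, at 227, and unfed replicate 2, at 204.

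**Figure D3:**
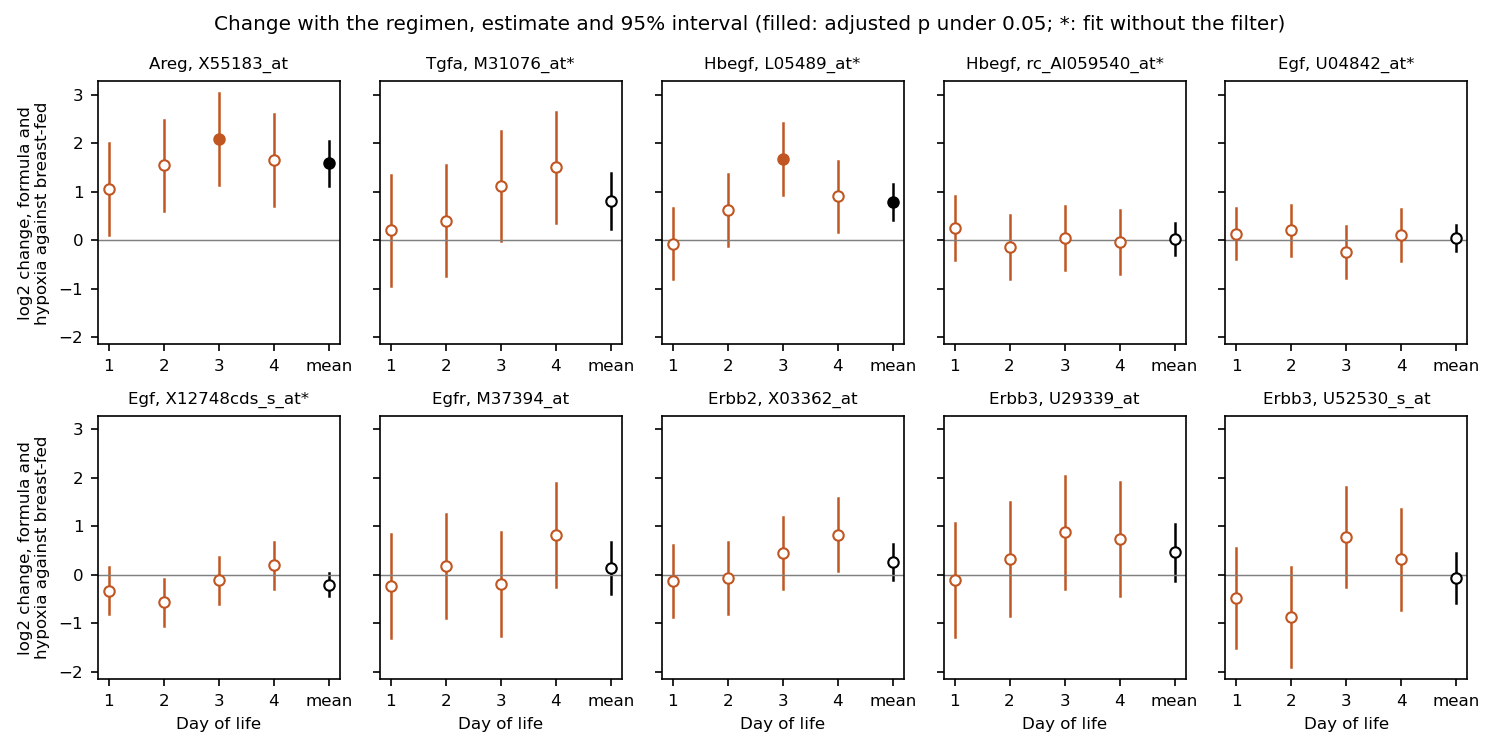
Log2 change of each of the 10 member probe sets, formula and hypoxia against breast-fed, on days 1 to 4 and as their mean, with 95% intervals from limma. Filled points have an adjusted p under 0.05, and an asterisk marks probe sets fitted without the filter. Filled points appear for Areg and Hbegf L05489_at on day 3 and in the mean.

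By the same likeness over 9 group means, Egfr was nearest to Crmp1 (r = 0.865), Ung (0.838) and Pde3a (0.836). Erbb2 was nearest to Plcb3 (0.952), Pkm (0.917) and Reg3g (0.911), and Erbb3 at U29339_at to Tcp11l2 (0.917), Or2c1 (0.911) and Gstp1 (0.909). None of these receptor probe sets was called as differing over the 9 groups (F test in limma, adjusted p = 0.639, 0.259 and 0.783). These likenesses thus describe group means whose differences did not pass the test.

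The other genes of the pathway were read from 6 lists, at each gene's probe set with the highest mean. The lists were chosen with earlier results of these data known. Their counts are thus descriptions, and the shares over all probe sets beside them are no independent test. For the 4-day mean, genes that act on the receptors or pass the signal on mostly did not pass the test. Of the other family ligands and the receptor Erbb4, 2 of 8 were tested, Nrg1 and Nrg2, and neither was called (log2 changes 0.14 and 0.09). Of the genes of ligand release, 5 of 10 were tested and 1 was called as higher, Cd9, a tetraspanin of the cell surface (log2 change 0.58, limma adjusted p = 0.0448), while the sheddase gene Adam17 gave -0.38 (adjusted p = 0.355). The Cd9 call was lost with the deposited scaling, with a common median, with the record run as a term, within the first run and without both arrays that stood apart. Of the adaptors and relay kinases, 13 of 28 were tested and 1 was called as higher, Araf, a RAF kinase (0.44, adjusted p = 0.0170), a call lost with a common median and within the first run. The median log2 changes of these lists were 0.12, 0.00 and 0.20, against 0.02 over all probe sets. Of all probe sets 3.91% were called as higher and 6.56% as lower.

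On the list of feedback and degradation genes, the calls in the 4-day mean all lay in the higher direction, and their number depended on the setting. Of the feedback and degradation genes, 12 of 18 were tested and 6 were called as higher and 0 as lower, with a median log2 change of 0.47, against 3.91% higher and 6.56% lower among all probe sets and a median of 0.02. As the list was chosen with earlier results known, this describes its genes and does not test the list. Ptprr, a tyrosine phosphatase that acts on MAP kinases, gave a log2 change of 1.40 (limma adjusted p = 5.06e-06). Dusp1 and Dusp5, dual-specificity phosphatases of MAP kinases, gave 0.91 (adjusted p = 0.00808) and 0.52 (0.0452). Zfp36, which promotes decay of unstable mRNAs, gave 0.75 (adjusted p = 0.00301), Errfi1, a direct inhibitor of EGFR, 0.75 (0.0305), and Grb10, an adaptor of receptor kinases, 0.58 (0.0366). For Errfi1 the other probe sets gave -0.00 (M23572_at, mean signal 18.8, below the filter) and 0.62 (X07266cds_s_at, mean signal 43.6). Neither was called in the fit without the filter. The count was 3 with a common median, 3 with the record run as a term, 1 within the first run and 4 without formula and hypoxia day 3 replicate 3.

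Among the early target genes, 13 of 21 were tested, with a median log2 change of 0.64 against 0.02 over all probe sets. Of them, 5 were called as higher and 0 as lower, where 3.91% of all probe sets were called as higher and 6.56% as lower. The 5 were Fos (1.03, limma adjusted p = 0.00199) and Junb (0.97, adjusted p = 6.62e-05), subunits of the AP-1 factor, Egr1 (0.77, adjusted p = 0.0151), Klf4 (0.65, adjusted p = 0.00459) and Atf3 (0.56, adjusted p = 0.0116), all transcription factors. The other 3 probe sets of Egr1 gave 0.16, 0.19 and -0.09. The count was 3 both with a term for the run and within the first run. Of the later growth targets, 10 of 10 were tested and 2 were called as higher and 0 as lower, with a median of 0.09. Both belong to the urokinase system, the receptor gene Plaur (1.09, adjusted p = 7.59e-05) and the protease gene Plau (0.61, adjusted p = 0.00243), while the cyclin genes Ccnd1 and Ccnd2 gave 0.07 and -0.04.

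**Figure D4:**
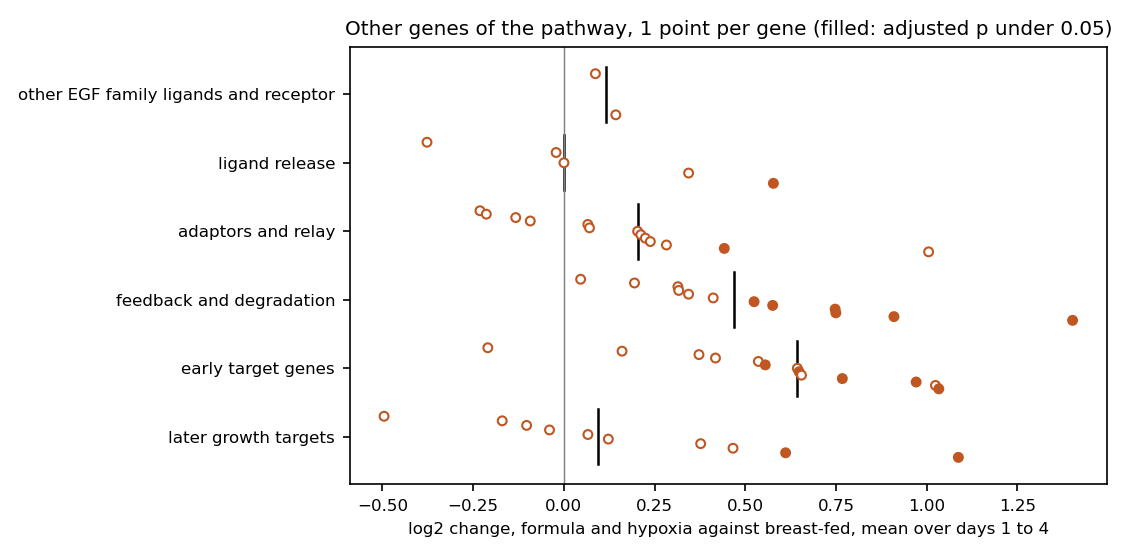
Log2 change of the tested genes of 6 pathway lists, formula and hypoxia against breast-fed, mean over days 1 to 4. Each point is 1 gene, filled where the adjusted p is under 0.05, and vertical bars are list medians. The lists were chosen with earlier results of these data known. Filled points lie to the right of 0 and are most frequent in the feedback list (6 of 12) and the early target list (5 of 13).

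Within formula and hypoxia, day 4 against day 1, the feedback list had 4 of 12 genes called as higher and 0 as lower and the early targets 3 of 13 and 0. The later growth targets had 1 of 10 and 0, and the adaptors 1 of 13 in each direction. The remaining lists had 0 calls by limma. Among all probe sets 5.17% were called as higher and 5.4% as lower in that comparison. The smooth muscle and epithelial markers that moved with it are given beside the Areg values, and 1 fibroblast, 1 red cell, 1 exocrine pancreas and 1 liver marker were called as lower. Their part in the list counts was not tested.

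In whole tissue, fewer cells of a type and less RNA per cell cannot be told apart. Epithelial markers, those of the labelled tissue, were present in every array, and the summed signal of 11 of 13 ran from 15939 to 32753 in breast-fed, 17423 to 31904 in formula and 15811 to 29113 in unfed pups. Of these 11, 1 was called in the 4-day mean, as higher. Leukocyte markers moved with the regimen: 4 of 5 tested were called as lower, and the sum ran from 1347 to 2913 under formula and hypoxia against 2397 to 4293 under breast feeding. Of the fibroblast markers 2 of 7 were lower, and of the red cell markers 3 of 3 were higher (sums of 12043 to 19369 against 7592 to 15896). Exocrine pancreas had 1 of 3 higher and liver 1 of 3 lower. In the 4-day mean, smooth muscle, endothelium, and neuron and glia had 0 calls of 6, 1 and 4 tested. The part of these shifts in the Areg, Hbegf and pathway results was not tested.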

How the data were processed

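The authors deposited probe set intensities on a linear scale, 1 per probe set and array, in the series value table. The array software and the background correction behind them were not given in the sources used here. Of 28 arrays, 26 had a 2% trimmed mean of 150.2 to 150.5, and breast-fed day 1 replicate 2 and day 4 replicate 1 had 109.2 and 209.2. The 59 controls were left out. The platform annotation gave 1 symbol for 7006 probe sets, several for 308 and none for 1426, and those with several were not named.

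Quantile normalisation made the arrays alike, and log2(intensity + 8) was analysed, with 8 as the pseudocount. Probe sets with a mean above the 40th percentile (5244 of 8740) were tested, each by itself, with limma 3.58.1 in R 4.3.3: 1 mean per group over all 28 arrays (19 residual degrees of freedom), empirical Bayes with an intensity trend, two-sided tests, and Benjamini-Hochberg adjustment over all probe sets tested. Calls are at an adjusted p under 0.05 and intervals are 95%. Members below the filter were read from the same fit without it. The procedure was tested on simulated data. Replicates are separate pups per the labels, and their number limits the precision.

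The members and gene lists were chosen with earlier results of these data known. All member probe sets were named. Of the pathway lists, every gene called in the 4-day mean was named, to a limit of 8 a list. Likeness was Pearson's r over the 9 group means of log2 signal. Settings varied were the scaling, the pseudocount, the filter, 1 probe set per gene, array weights, the record run, a replicate block and the leaving out of arrays. The tables of pathway counts by setting were added after seeing the data.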

Additional observations from a re-analysis of the deposited data

Results flagged for a closer look

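Among the 4 unfed newborns, 1 pup lay far from the other 3 at 4 of the 10 member probe sets. On the log2(signal + 8) scale, the gap to the nearest pup as a share of the group's range was 0.978 for Erbb2 (replicate 2, signal 187), 0.881 for Erbb3 at U29339_at (replicate 2, signal 204), 0.889 for Egf at X12748cds_s_at (replicate 1, signal 12.7) and 0.855 for Hbegf at rc_AI059540_at (replicate 4, signal 12.7). Each exceeded the 95% critical value of Dixon's test for 4 samples, and chance flags about 1 in 20 groups. Unfed replicate 2 was also the highest of its group for Tgfa, at 46.2, and the lowest for Areg, at 20.01. The record of this array is not consecutive with any other, and its title alone carries an added letter. What sets that record apart is not given in the labels, and its part in these values was not tested. The Egf and Hbegf signals lie below the filter at 24.0. The groups of 3 pups are not covered here. Outlying pups occur there too, as for Egfr in breast-fed day 3 (58.8 beside 13.2 and 13.3).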

How the results depend on the processing

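The Areg rise in the 4-day mean kept its direction and its call in 40 of 41 alternatives (log2 change 1.23 to 1.74, adjusted p 5.95e-07 to 0.00113). The other, the second record run alone, holds 1 formula array, of day 4. It gives a day 4 difference of 1 array against 3 in place of the 4-day mean (adjusted p = 0.999 for Areg), with the lone array assumed to vary like the other groups, and its missing calls say nothing about stability. The first run alone averages days 1 to 3. Counts of called members moved as follows. For the 4-day mean the count was 2 without the filter and 0 in the second run (day 4 alone). For day 2 it was 1 with array weights (0 to 1 with single arrays left out). For day 3 it was 2 without the filter and 0 without both arrays that stood apart (0 to 1). For day 4 it was 1 with the deposited scaling and with array weights (0 to 1). For day 4 against day 1 under formula and hypoxia it was 0 with a common median and 2 with a pseudocount of 32, the 60th percentile filter, 1 probe set per gene, array weights, or without both arrays that stood apart (0 to 2). Over the 9 groups it was 2 without the filter, 2 with array weights and 0 in the second run, which holds 5 groups.

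Changes that were not called turned sign near 0. Erbb3 at U52530_s_at gave 0.035 as deposited, 0.023 with a term for the run, 0.642 in the second run (day 4), 0.071 without both arrays that stood apart, and -0.18 to 0.094 with single arrays left out. Hbegf at rc_AI059540_at gave -0.13 with array weights, -0.047 with a term for the run, -0.0715 and -0.0484 in the first and second run, and -0.050 to 0.16 with single arrays left out. Egfr gave -0.092 in the first run and -0.0557 without both arrays, Egf at U04842_at gave -0.0036 in the first run and -0.0022 to 0.13 with arrays left out, and Egf at X12748cds_s_at gave 0.043 in the second run (day 4). Areg on day 1 of formula and hypoxia against unfed gave -0.0079 to 0.70 with arrays left out. The causes were not tested. Over 26 results for single probe sets, 951 values kept direction and call, 32 gained a call, 20 lost it and 22 turned sign.

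Arrays scaled to a common median gave 128 probe sets higher and 390 lower in the 4-day mean, against 205 and 344. A replicate block, with the number in the title as a term, changed no count of called members (Areg log2 change 1.58, adjusted p = 8.12e-05). Same-numbered arrays shared only a number: over 12 pairs the correlation of deviations ran from -0.158 to 0.129, and 2 of 12 arrays were closest to their own number. The first run alone had no day 4 breast-fed arrays, and probe sets below the filter had no value at the 60th percentile. Members near background (Egf, Hbegf, Tgfa) were limited by signal, and single days by 3 pups.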
